A study of Mus musculus with 32 samples.

Results

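The adipocyte and lipid droplet genes were 10 genes of the 33397 in the deposited table, picked by symbol: Pparg, Adipoq, Lep, Fabp4, Scd1, Plin1, Plin2, Plin4, Plin5 and Cidec. They were followed in 32 samples of gastrocnemius (GAS) muscle, the large calf muscle, from C57BL/6 mice (C57BL/6J in the study's methods) whose sciatic nerve had been cut. The groups were 0, 1, 3, 5, 7, 14, 21 and 28 d post denervation, with 4 samples each. The labels list the transection for every sample, 0 d included. The study's methods describe a sham operation, and its results compare late muscle with a nondenervated sham group. The 0 d group was used as the comparison group, although its labels do not name it as that sham group. According to the study's methods the mice were young adult males given isoflurane and the analgesic buprenorphine at surgery. No other allele is named for these samples. The nerve was cut on the left, and the methods do not say from which side the sequenced muscle came. All 10 genes were detected in every sample and all 10 entered every test. Values are FPKM, that is, fragments per length of exon and per depth of the sample.

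White adipocytes store triglyceride in 1 large droplet, and skeletal muscle holds adipocytes between its fibres and fascicles besides small droplets inside the fibres. Pparg encodes the nuclear receptor that drives adipocyte formation. Adipoq and Lep encode the hormones adiponectin and leptin, Fabp4 a fatty acid carrier of adipocytes and capillaries, and Scd1 the enzyme that puts a double bond into saturated fatty acids. Perilipins coat the droplet surface. Plin1 belongs to large adipocyte droplets, as does Cidec, a droplet protein that is not a perilipin. Plin2 is found on droplets of most cells, and Plin4 is abundant in white adipocytes and also made by muscle. Plin5 belongs to oxidative tissues such as muscle, where it links droplets to mitochondria. In bulk muscle, fewer cells of a type and less RNA per cell cannot be told apart.

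The tissue was checked against marker genes first. The extraction text of the labels speaks of retinas, whereas the tissue label says gastrocnemius muscle. The 7 retina markers did not exceed an FPKM of 0.401 in any sample, and the 8 muscle fibre markers were never below 43.2. Recovered depth was 14199902 to 17561584 fragments per sample. Mitochondrial genes took 14.5% to 18.2% of the fragments at 0 d and 6.70% to 17.1% afterwards, and a smaller share of these genes raises the FPKM of the others. Among genes averaging 1 FPKM or more, the median gene stood 0.12 to 0.32 above 0 d on the log2 scale at the 7 later days. The part of the mitochondrial share in this shift was not tested. Scaling that sets this median near 0 left 43.7% to 46.8% of all called genes higher than at 0 d, against 68.7% to 79.5% of them in the values as deposited. Where a call on one of the 10 genes depends on this, the value under that scaling is given too.

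The start regions of Lep, Plin1, Cidec and Pparg are shown because they hold the eight-letter C/EBP-type word TTGCNNAA, searched on both strands and written in capitals. This is a word of C/EBP factors, which work with PPARgamma in adipocytes. Each run holds 250 bases before and 50 after a RefSeq transcription start in GRCm38.p6, read 5′ to 3′ on the gene's strand.
Lep, chr6:29059971-29060270, plus strand: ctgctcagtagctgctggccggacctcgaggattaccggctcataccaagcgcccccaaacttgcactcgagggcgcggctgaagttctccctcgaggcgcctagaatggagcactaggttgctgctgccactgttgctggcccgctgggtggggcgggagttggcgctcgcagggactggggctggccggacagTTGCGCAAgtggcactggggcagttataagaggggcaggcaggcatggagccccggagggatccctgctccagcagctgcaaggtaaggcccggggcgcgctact
Plin1, chr7:79732727-79733026, minus strand: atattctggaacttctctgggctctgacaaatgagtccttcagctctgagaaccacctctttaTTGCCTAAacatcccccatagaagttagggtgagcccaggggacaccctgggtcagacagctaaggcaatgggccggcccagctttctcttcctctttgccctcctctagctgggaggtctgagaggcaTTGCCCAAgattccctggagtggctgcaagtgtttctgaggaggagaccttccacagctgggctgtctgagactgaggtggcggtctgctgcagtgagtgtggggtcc
Cidec, chr6:113434715-113435014, minus strand: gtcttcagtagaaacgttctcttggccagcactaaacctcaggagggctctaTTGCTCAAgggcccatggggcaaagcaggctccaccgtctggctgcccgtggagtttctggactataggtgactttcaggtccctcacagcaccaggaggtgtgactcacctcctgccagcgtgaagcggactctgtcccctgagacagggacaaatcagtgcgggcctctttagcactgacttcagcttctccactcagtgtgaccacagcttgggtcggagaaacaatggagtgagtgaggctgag
Pparg, chr6:115421816-115422115, plus strand: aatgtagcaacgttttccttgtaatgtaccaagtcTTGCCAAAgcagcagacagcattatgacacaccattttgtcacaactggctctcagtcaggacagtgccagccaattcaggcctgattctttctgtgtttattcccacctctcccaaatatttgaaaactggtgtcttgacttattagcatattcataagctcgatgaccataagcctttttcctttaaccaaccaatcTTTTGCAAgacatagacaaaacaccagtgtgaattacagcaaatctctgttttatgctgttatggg
Counted from the start site, the word begins at -55 in Lep, at -187 and -58 in Plin1, at -198 in Cidec, and at -215 and -16 in this Pparg start, the most downstream of 3. RefSeq windows were at hand for 8 of the 10 genes, Fabp4 and Scd1 being the others, and 4 of their 12 windows held the word. It occurs in 10.8% of all 32851 windows. The word TATAAA was in 1 of the 12, a Pparg start, against 13.6% of all windows. A pair of AGGNCA words in the same direction with 1 base between, the form that PPARgamma binds together with RXR, was in 0 of the 12 and in 0.381% of all. The word in Lep reads as a match on both strands and was counted once, and the TATAAA match lay in another Pparg window than the printed one. The Adipoq window, and those of Plin2, Plin4 and Plin5, held 0 TTGCNNAA words. A match of letters is a description of the window only.

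The 10 genes differed in how much of their variation lay between days. Days differed far more than samples of the same day for Plin5, Plin2 and Plin4, with 96.0%, 94.8% and 92.4% of the variance of log2(FPKM + 1) lying between days. For Scd1 this share was 64.4%, and for Plin1, Fabp4, Adipoq, Pparg, Cidec and Lep it was 40.3%, 38.0%, 25.4%, 22.0%, 18.02% and 13.1%. With 8 days of 4 samples this share averages 22.6% where days do not differ, so the last 4 of these genes were near or under it. Genes were tested by limma on log2(FPKM + 1) and counted as changed at a Benjamini-Hochberg adjusted p under 0.05 over all genes with a fold change of at least 1.5 on that scale. This scale understates the change of genes with low FPKM. Of the 10 genes, 3 passed at 1 d, where 8.84% of the 22071 tested genes did. The count was 3 on day 3 beside a background of 19.3%, 4 on day 5 beside 18.8%, and 3 on day 7 beside 19.5%. It was 3 on day 14 beside 18.5%, 2 on day 21 beside 15.7%, and 2 on day 28 beside 18.3%. The changed genes of these days were Plin2, Plin4, Plin5, Scd1 and Plin1, and the share of all genes called on a day varied between 8.84% and 19.5%. In the comparison of the 12 samples of 14, 21 and 28 d with the 4 of 0 d, 2 of the 10 passed, beside 18.8% of 20243 genes. At these late days the 10 genes had a median of -0.09 on the log2 scale. The median was 0.15 for all tested genes and 0.28 for those averaging 1 FPKM or more, as all 10 did.

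**Figure D1:**
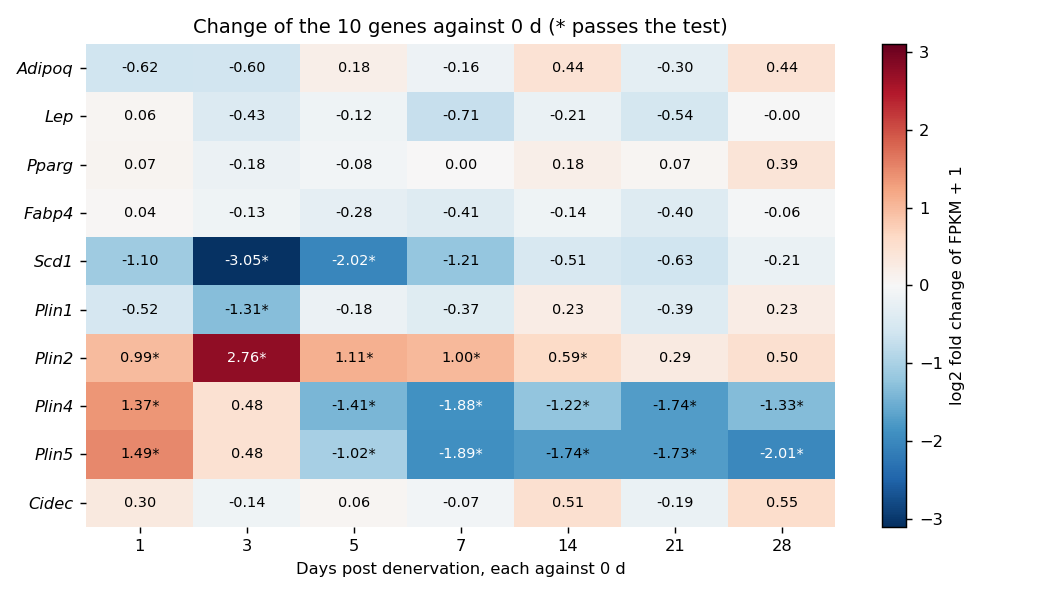
Log2 fold change of FPKM + 1 for the 10 genes (rows) at each of 7 days against 0 d (columns), 4 samples a day, with an asterisk where the gene passed the test. Plin2 is positive throughout with its largest value of 2.76 at 3 d, Plin4 and Plin5 turn from positive at 1 d to negative from 5 d, and Scd1 has its lowest value of -3.05 at 3 d.

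Plin2, the perilipin of droplets in most cells, rose early and peaked at 3 d. At 0 d its FPKM was 11.3, 10.97, 11.2 and 9.72. At 1 d it was 19.8, 17.95, 24.1 and 29.3, and at 3 d 69.4, 94.6, 79.7 and 74.2. Every sample of 1 d lay above every one of 0 d, and every sample of 3 d lay above every sample of any other day. At 5 d the values were 26.6, 22.6, 24.1 and 24.9, and at 7 d 24.4, 22.4, 16.7 and 28.3. They were 15.9, 19.2, 14.4 and 17.9 at 14 d, 14.9, 14.3, 11.8 and 12.9 at 21 d, and 19.3, 17.997, 12.7 and 13.7 at 28 d. Plin2 thus came down most of the way by 5 d, and in the deposited FPKM no later sample overlapped the 0 d samples. With the median gene set to no change, the exact permutation p against 0 d went from 0.0286 to 0.0857 at 14 d, 1 at 21 d and 0.343 at 28 d. The mean of 79.5 ± 10.9 (SD, n = 4) at 3 d was 7.35-fold that of 10.8 ± 0.747 at 0 d, a log2 fold change of 2.76 ± 0.14 (SE) with a limma adjusted p of 2.09e-15. Plin2 passed the test also at 1 d (0.99 ± 0.14, limma adjusted p = 3.29e-06), 5 d (1.11 ± 0.14, 2.33e-07), 7 d (1.00 ± 0.14, 1.32e-06) and 14 d (0.59 ± 0.14, 0.00119). At 14 d this call was lost when the median gene was set to no change, where the log2 fold change was 0.22 with a limma adjusted p of 0.135. It was also lost without 0 d sample 4 (0.54) or without sample 2 (0.53) or 4 (0.56) of 14 d, the adjusted p-values of limma being at most 0.0067. At 21 d the log2 fold change was 0.29 (95% interval -0.01 to 0.59) and at 28 d 0.50 (0.21 to 0.80), both short of the call, although 28 d passed without its sample 3 (0.60, limma adjusted p = 0.00176). Over the late days together it was 0.46 ± 0.11 (limma adjusted p = 0.00163, exact permutation p = 0.00165), under the fold threshold, and 0.13 with the median gene set to no change (limma adjusted p = 0.287). From 1 to 3 d Plin2 rose further by 1.77 ± 0.14 on the log2 scale (limma adjusted p = 7.48e-11), and from 3 to 5 d it fell by 1.65 ± 0.14 (limma adjusted p = 1.5e-09).

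Macrophage markers were higher than at 0 d on the days on which Plin2 was, but did not fall with it after 3 d. Of 10 such markers, 4 were higher than 0 d at 1 d, 10 at 3, 5 and 7 d and 9 at 14, 21 and 28 d. Of all 22071 tested genes, 1400, 2924, 3296, 3403, 3230, 2599 and 3143 were higher at these 7 days. With the median gene set to no change the marker counts were 3, 9, 10, 9, 9, 8 and 8. The markers had a median log2 fold change of 1.41 at 3 d, 1.70 at 5 d and 1.74 at 7 d. From 3 to 5 d 0 of them rose and 1 fell. Their summed FPKM was 160 to 235 at 0 d, 260 to 391 at 1 d, 320 to 1123 at 3 d and 668 to 812 at 5 d. It was 455 to 1410 at 7 d, 460 to 1073 at 14 d, 465 to 657 at 21 d and 535 to 624 at 28 d. The sum was unequal among the 3 d samples, in which Plin2 kept to 69.4 to 94.6. Lyz2, the lysozyme gene and the most abundant of these markers, went from 118 FPKM at 0 d to 399 at 3 d, or 1.45 ± 0.39 on the log2 scale (limma adjusted p = 0.0032). No marker of the list was at 0 in the 0 d group. The part of macrophage RNA in the Plin2 values was not tested.

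**Figure D2:**
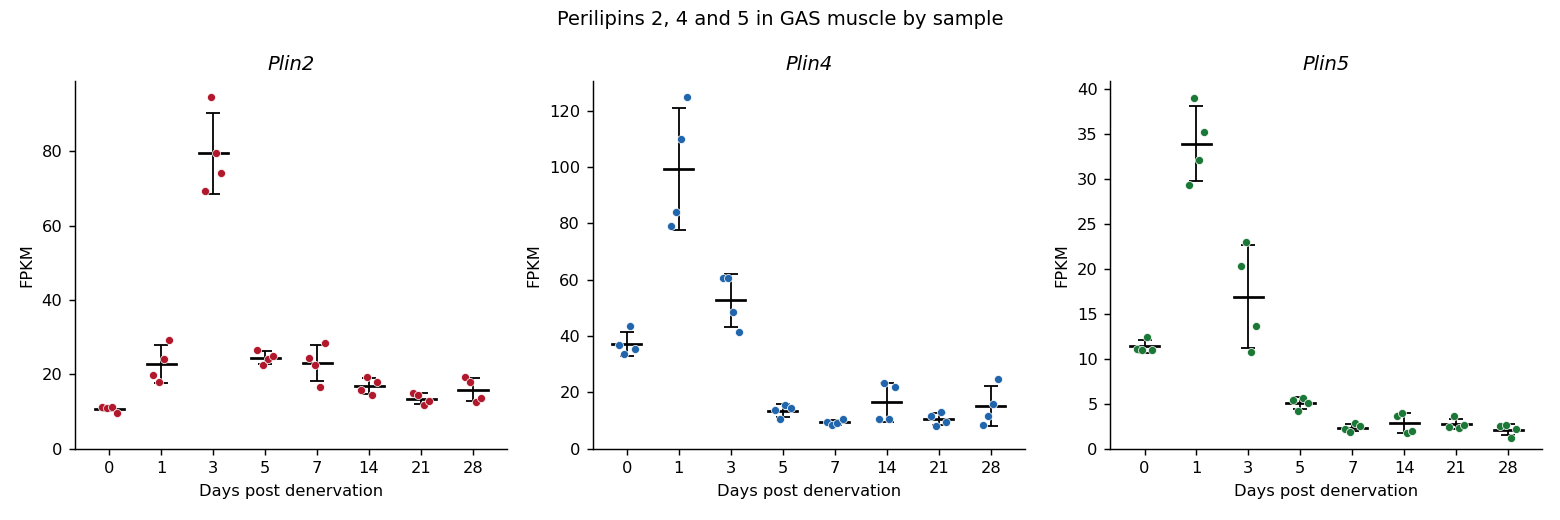
FPKM of Plin2, Plin4 and Plin5 (y axes) by days post denervation (x axis, equally spaced), with 1 point per sample, the mean as a long bar and the SD as error bars, 4 samples a day. Plin2 stands at 69.4 to 94.6 at 3 d, while Plin4 and Plin5 have their highest values at 1 d (79.1 to 125 and 29.4 to 39.0) and stay below all 0 d samples from 5 d on.

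Plin4 and Plin5 both rose at 1 d and were lower than at 0 d from 5 d to 28 d. They are neighbours on chromosome 17 (GRCm38 coordinates of GENCODE), at chr17:56100591-56109803 for Plin4 and chr17:56111601-56117596 for Plin5, both on the minus strand with 1797 bases between them. Plin4 had FPKM values of 36.7, 33.8, 43.4 and 35.4 at 0 d. It reached 79.1, 83.9, 110 and 125 at 1 d and stood at 60.5, 60.6, 48.5 and 41.4 at 3 d. All samples of 1 d lay above those of every other day, and the 3 d samples still overlapped the 0 d samples. From 5 d on the level was low, with 13.6, 10.4, 15.6 and 14.5 at 5 d and 9.49, 8.445, 9.07 and 10.6 at 7 d. The late samples held 10.4, 23.3, 10.4 and 21.8 at 14 d, 11.5, 8.15, 12.9 and 9.57 at 21 d, and 8.42, 11.8, 15.9 and 24.7 at 28 d. None of these 20 samples reached the lowest 0 d sample, although 14 and 28 d each held 1 or 2 samples well above the rest.

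At 1 d the mean of Plin4 was 2.66-fold that of 0 d, or 1.37 ± 0.24 (SE) on the log2 scale with a limma adjusted p of 5.75e-05. It fell by 0.89 ± 0.24 from 1 to 3 d and by 1.88 ± 0.24 from 3 to 5 d (limma adjusted p = 0.00524 and 1.17e-06). Against 0 d, the log2 fold changes at 5, 7, 14, 21 and 28 d were -1.41, -1.88, -1.22, -1.74 and -1.33, each with an SE of 0.24 and a limma adjusted p of at most 0.000142. The 12 late samples averaged 14.1 against 37.3 at 0 d, which is 2.65-fold lower (log2 fold change -1.43 ± 0.25, limma adjusted p = 7.52e-05). An exact permutation test of these 12 against 4 samples gave the smallest p it can give, 0.000549 (two-sided, 0.00275 after adjustment over 10 genes). An exon of Plin4 shares 17 bases with Hdgfl2 on the opposite strand, and whether the counting used strand is not given in the sources used here.

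Plin5 also peaked at 1 d and was low from 5 d on. Its FPKM was 11.1, 11.04, 12.4 and 11.02 at 0 d, 29.4, 39.0, 32.1 and 35.3 at 1 d, and 20.3, 23.0, 10.8 and 13.6 at 3 d. The samples of 1 d lay above those of all other days, and those of 3 d straddled the 0 d level. It then dropped to 5.47, 4.23, 5.69 and 5.10 at 5 d and to 2.17, 1.87, 2.85 and 2.56 at 7 d. The values were 3.66, 3.97, 1.801 and 1.93 at 14 d, 2.45, 3.599, 2.29 and 2.69 at 21 d, and 2.48, 2.62, 1.22 and 2.21 at 28 d. All 20 samples from 5 d on were below all 0 d samples, and those from 7 d on were below those of 5 d. Plin5 was 2.98-fold its 0 d mean at 1 d (log2 fold change 1.49 ± 0.19, limma adjusted p = 5.28e-07). At 3 d the log2 fold change was 0.48 (limma adjusted p = 0.0472), under the fold threshold, and without the third sample of 3 d it was 0.66 and passed (limma adjusted p = 0.00617). The changes at 5, 7, 14, 21 and 28 d were -1.02, -1.89, -1.74, -1.73 and -2.01, each with an SE of 0.19 and a limma adjusted p of at most 6.63e-05. The late samples averaged 2.58, which is 4.42-fold lower than 11.4 at 0 d (log2 fold change -1.83 ± 0.16, limma adjusted p = 1.85e-08, exact permutation p = 0.000549).

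The steps between days were tested in the same fit, and the perilipins made up most of the calls. From 1 to 3 d, 4 of the 10 genes passed (Plin2 up, Plin4, Plin5 and Scd1 down), beside 10.6% of all genes. From 3 to 5 d, 3 passed (Plin2, Plin4 and Plin5, all down), beside 5.76%. Plin1 stood 1.13 higher at 5 d than at 3 d without passing (limma adjusted p = 0.0625), and it passed at 1.45 with a pseudocount of 0.1, at 1.13 where genes had to reach 1 FPKM in 4 samples, at 1.35 in TPM, at 1.47 without sample 3 of 3 d and at 1.34 without sample 2 of 5 d (limma adjusted p of at most 0.0465). From 5 to 7 d, Plin5 alone passed with a fall by 0.87 ± 0.19 (limma adjusted p = 0.0131), beside 0.657%. Between 7 and 14 d, 14 and 21 d, and 21 and 28 d the count was 0 of 10 by limma, with 2, 2 and 1 at an unadjusted p under 0.05, beside 0.634%, 0.453% and 0.199% of all genes called. At 28 d against 7 d it was 0 of 10 by limma with 3 at an unadjusted p under 0.05, beside 2.96% of all genes called. In that last comparison Plin2 stood at -0.50 on the log2 scale (limma adjusted p = 0.0199), short of the fold threshold, and it passed at -0.63 without sample 3 of 7 d and at -0.59 without sample 1 of 28 d. Without that same 28 d sample Plin4 passed there at 0.77 (limma adjusted p = 0.0372).

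Scd1, the delta-9 desaturase, had the largest fall below 0 d of the 10 genes, at 3 d. At 0 d its FPKM was 278, 119, 143 and 91.8. It was 27.6, 23.9, 151 and 196 at 1 d, and 8.13, 18.3, 31.8 and 15.2 at 3 d. The 1 d samples split into a pair near the 3 d level and a pair within the 0 d range, while all 3 d samples were below all of 0 d. At 5 d it was 34.4, 22.6, 41.8 and 45.5, and at 7 d 64.6, 33.3, 76.4 and 88.5. It was 67.1, 175, 67.7 and 132 at 14 d, 112, 73.4, 98.2 and 92.7 at 21 d, and 58.0, 106, 166 and 237 at 28 d. The samples of 5 and 7 d still lay below all of 0 d, and those from 14 d on overlapped them. The mean at 3 d was 8.59-fold lower than at 0 d (log2 fold change -3.05 ± 0.54, limma adjusted p = 3.01e-05), and at 5 d 4.38-fold lower (-2.02 ± 0.54, limma adjusted p = 0.003). At 7 d the value was -1.21 and did not pass (limma adjusted p = 0.0701). It passed at -1.60 with the median gene set to no change (limma adjusted p = 0.0149). Quantile normalization also gave a call (-1.42, limma adjusted p = 0.0339), as did voom on recovered fragments (-1.23, limma adjusted p = 0.048). A fit of only the 8 samples of 0 and 7 d gave -1.21 and passed too (limma adjusted p = 0.0188). Without sample 4 of 1 d, Scd1 also passed at 1 d, with -1.61 against -1.10 (limma adjusted p = 0.0262 and 0.144). The late samples averaged 116 against 158, or -0.45 on the log2 scale (95% interval -1.15 to 0.25, limma adjusted p = 0.265). Scd1 has close paralogues, so fragments shared with them could have been counted either way.

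Adipoq, the adiponectin gene, did not differ from 0 d at any day by limma, and its samples spread widely. Its FPKM was 35.8, 15.9, 25.5 and 13.9 at 0 d, 4.997, 10.02, 19.7 and 30.9 at 1 d, and 5.96, 18.1, 38.2 and 7.90 at 3 d. It was 30.0, 14.8, 25.3 and 30.5 at 5 d, and 22.9, 12.6, 17.4 and 25.3 at 7 d. The late values were 14.2, 45.3, 19.9 and 55.5 at 14 d, 22.4, 11.9, 21.02 and 15.02 at 21 d, and 13.4, 26.8, 34.8 and 56.9 at 28 d. Every day overlapped the 0 d range, and the highest sample of a day was 1.88 to 6.41 times its lowest. The log2 fold change ran from -0.62 at 1 d (95% interval -1.68 to 0.44) to 0.44 at 14 and 28 d (-0.62 to 1.503 at both), and at the late days together it was 0.19 (-0.62 to 1.00, limma adjusted p = 0.691). With the median gene set to no change the late value was -0.15, so no direction can be given.

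Lep, Pparg and Cidec passed the test at no day either, and every day overlapped the 0 d range for all 3. Lep was low, with 0.853 to 9.31 FPKM over the 32 samples, and at 1 d it split into 0.924 and 1.07 against 9.31 and 8.54. Its log2 fold change lay between -0.71 at 7 d (limma adjusted p = 0.29) and 0.06 at 1 d. Pparg stayed between 1.33 and 5.70, with its highest sample at 28 d, and its late log2 fold change was 0.21 (95% interval -0.18 to 0.61, limma adjusted p = 0.344). Cidec, which fuses droplets into larger ones, ranged from 6.09 to 30.9. Its late log2 fold change was 0.29 (-0.50 to 1.08, limma adjusted p = 0.536). With the median gene set to no change the late values were -0.048 for Pparg and -0.047 for Cidec, so no direction can be given for either. The order of the 8 day means placed 28 d first for Pparg, 14 d first for Adipoq, Plin1 and Cidec, and 1 d first for Lep and Fabp4. No neighbouring days in these orders were free of overlap between their samples.

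Fabp4 varied least of the 10 genes, from 45.0 to 86.9 FPKM. At 0 d its values were 76.8, 70.9, 67.5 and 62.1, at 7 d 56.6, 45.0, 54.9 and 51.9, and at 21 d 57.7, 50.3, 48.7 and 52.1. Both later groups lay below all 0 d samples. The log2 fold changes of -0.41 at 7 d and -0.40 at 21 d had limma adjusted p-values of 0.0379 and 0.0459 but stayed under the fold threshold. At 5 d the value was -0.28 (limma adjusted p = 0.166). With the median gene set to no change Fabp4 passed the test at 5 d (-0.67), 7 d (-0.79) and 21 d (-0.71), the largest limma adjusted p being 0.000286. At 3, 14 and 28 d it then stood at -0.40, -0.53 and -0.43, under the fold threshold, with the smallest exact permutation p the design allows (0.0286). Over the late days the exact permutation p was 0.000549 under that scaling, against 0.185 as deposited. Its annotated exons cover all 4489 bases of the gene, introns included, so its FPKM is not comparable with that of other genes per length of messenger RNA.

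Plin1, the perilipin of adipocyte droplets, passed the test at 3 d and at no other day. Its FPKM was 12.7, 6.13, 7.78 and 4.58 at 0 d and 1.19, 2.62, 5.84 and 1.34 at 3 d. Of the 3 d samples, 3 lay below all of 0 d and the third lay within their range. The mean was 2.84-fold lower (log2 fold change -1.31 ± 0.44, limma adjusted p = 0.0157, exact permutation p = 0.0571). Leaving out 0 d sample 1, or sample 1 or 4 of 3 d, ended this call (-1.07, -1.10 and -1.14, limma adjusted p = 0.0694, 0.0568 and 0.0569). At 14 d its values were 3.61, 16.3, 5.37 and 17.1, a range wider than that of 0 d. For the 70 comparisons of a gene and a day with 0 d, the smallest two-sided exact permutation p with 4 against 4 samples was 0.0286, and after adjustment over the 70 it was 0.0833.

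**Figure D3:**
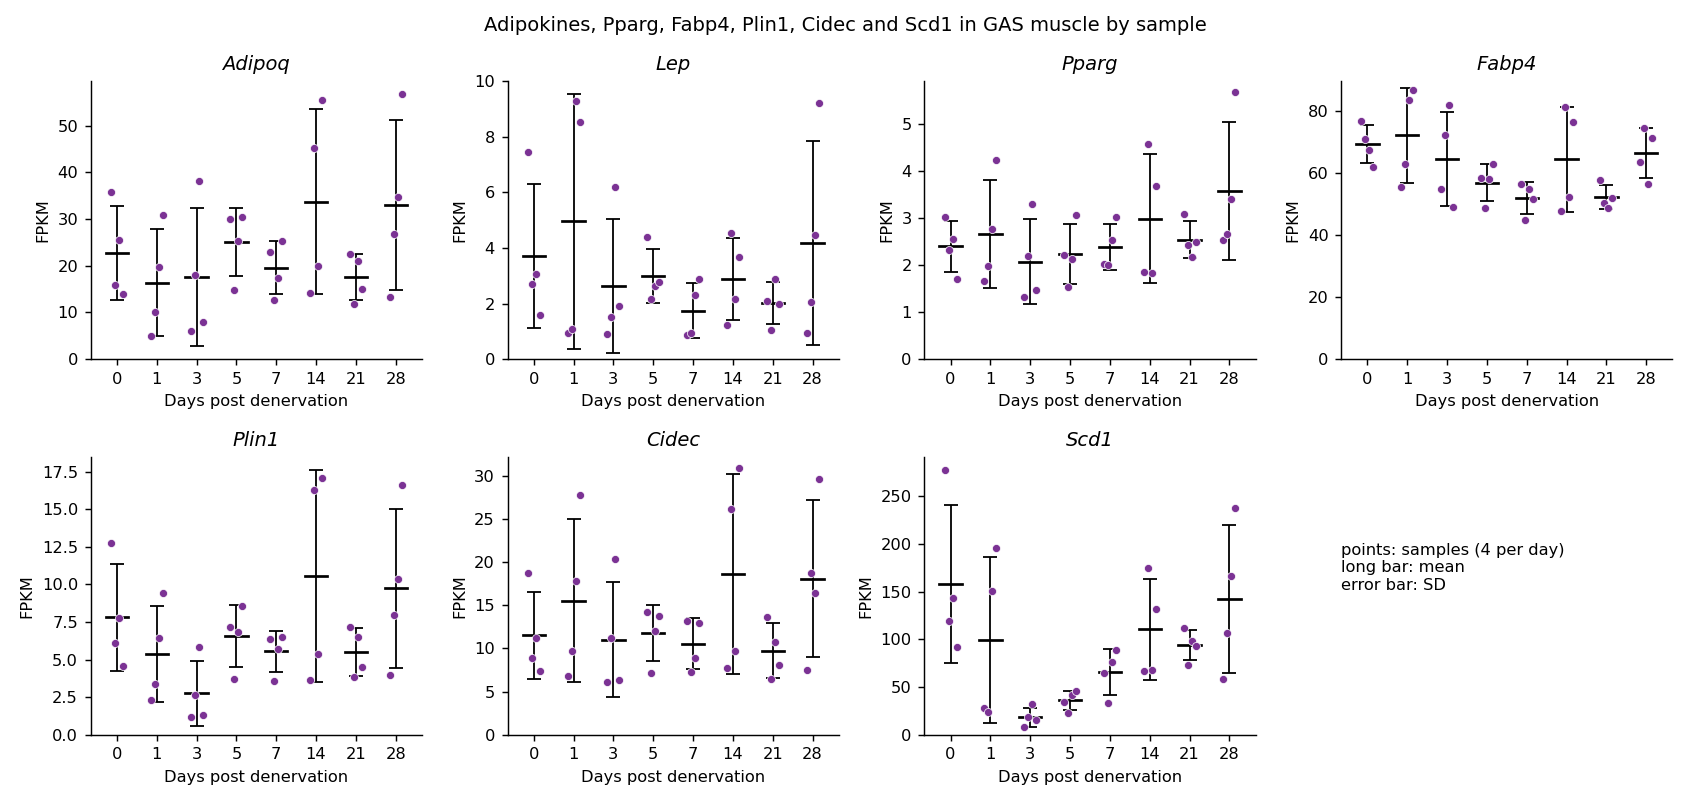
FPKM of Adipoq, Lep, Pparg, Fabp4, Plin1, Cidec and Scd1 (y axes, each from 0) by days post denervation (x axis, equally spaced), with 1 point per sample, the mean as a long bar and the SD as error bars, 4 samples a day. The samples of a day spread widely for Adipoq (13.4 to 56.9 at 28 d), and Scd1 falls to 8.13 to 31.8 at 3 d.

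Samples of the same day that were high in Adipoq were high in most of the other genes as well. After each day's mean of log2(FPKM + 1) was subtracted, Pearson's r with Adipoq over the 32 samples was 0.97 for Plin1, 0.97 for Cidec, 0.89 for Pparg, 0.88 for Scd1 and 0.85 for Lep. Each of these had an adjusted permutation p of 1.8e-05, which rests on the smallest value that 100000 shuffles within days can give. Spearman's rho was 0.97, 0.96, 0.92, 0.90 and 0.85. Fabp4 had r = 0.83 (rho = 0.84, adjusted permutation p = 0.00018) and Plin4 r = 0.71 (rho = 0.72, adjusted permutation p = 0.000463). Plin2 had r = 0.36 (adjusted permutation p = 0.114) with rho = 0.44 (adjusted permutation p = 0.0423), and Plin5 had r = -0.16 (rho = -0.06, adjusted permutation p = 0.524). All p-values were adjusted over the 9 relations, and no share of all genes with such a relation is given beside them. After removal of the 2 samples with the most extreme Adipoq departures from their day, r was 0.97, 0.97, 0.87, 0.87, 0.82, 0.78, 0.79, 0.35 and -0.08 in the same order.

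In single samples this meant that samples 2 and 4 of 14 d, with 45.3 and 55.5 of Adipoq, had 16.3 and 17.1 of Plin1 and 26.2 and 30.9 of Cidec, against 3.61 and 5.37 and 7.76 and 9.68 in the other two. The third sample of 3 d held 38.2 of Adipoq, 5.84 of Plin1 and 20.3 of Cidec, the highest of that day for all 3 genes. Plin4 in the same 14 d samples was 23.3 and 21.8 against 10.4 and 10.4. Plin5 had its higher 14 d values of 3.66 and 3.97 in the first and second samples, so the neighbours Plin4 and Plin5 parted here. Between these neighbours the within-day r was 0.10, although both peaked at 1 d and were below 0 d from 5 d on. Their lowest day means differed, at 7 d for Plin4 and 28 d for Plin5.

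**Figure D4:**
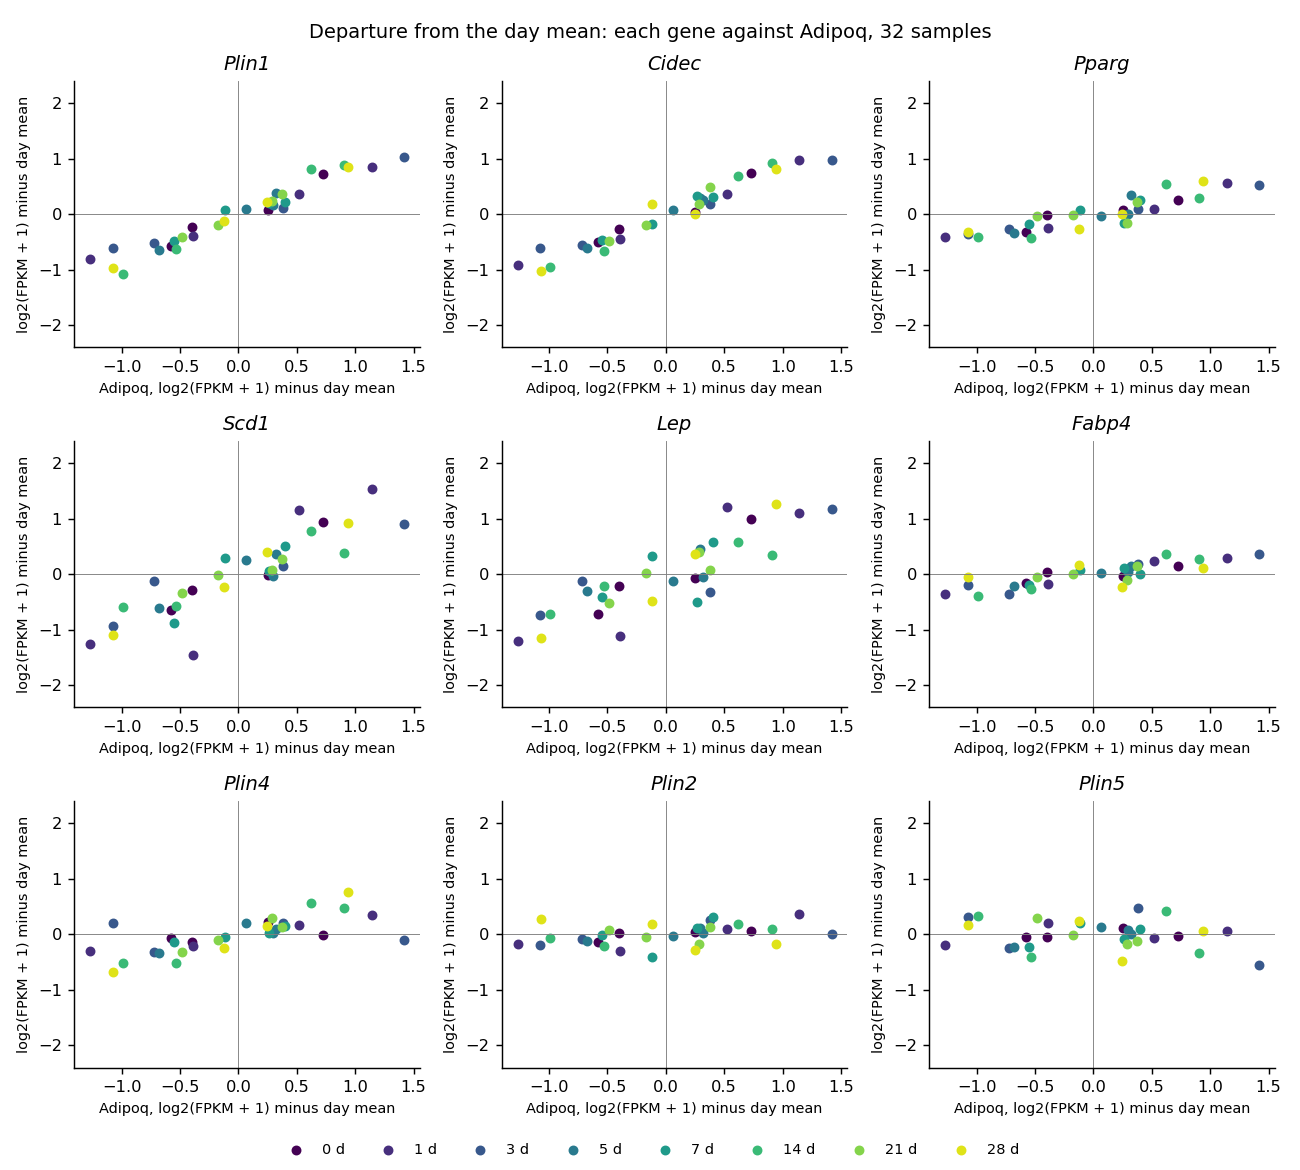
Departure of log2(FPKM + 1) from the mean of the same day, each of 9 genes (y axes) against Adipoq (x axes), with 1 point for each of 32 samples coloured by day. The points of Plin1 and Cidec lie near a rising line (r = 0.97), those of Plin4 scatter more (0.71), and those of Plin2 (0.36) and Plin5 (-0.16) form no line.

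Further adipocyte markers moved with Adipoq too. Of 15 such genes outside the 10, 0 were higher and 9 lower at 3 d (0 and 10 with the median gene set to no change). At the late days 1 was higher and 3 lower (1 and 4 under that scaling), and Gpd1 (-2.33), Adig (-0.90) and Aqp7 (-0.61) fell. Of all tested genes, 2924 were higher and 1330 lower of 22071 at 3 d, and 2937 and 863 of 20243 at the late days. Of the 15, 13 had a within-day relation with Adipoq at an adjusted permutation p of at most 0.00612, among them Cebpa (r = 0.92), Pck1 (0.92), Trarg1 (0.92), Cfd (0.90) and Retn (0.90). The exceptions were Aqp7, an aquaglyceroporin (r = 0.32, adjusted permutation p = 0.189), and Car3, a carbonic anhydrase that muscle fibres also make (r = -0.11, adjusted permutation p = 0.668). These 15 relations were computed after the pattern had been seen, and no share of all genes with such a relation stands beside their count. Without Car3, the summed FPKM of the list was 279 to 420 at 0 d, and the sums of 3 d (65.2 to 221) and 7 d (167 to 257) lay below that range while those of the other days overlapped it. Without Gpd1 as well, which muscle also makes, the sum was 160 to 296 at 0 d, and every later day overlapped it, 3 d with 51.9 to 201. Both shortened sums were chosen after the data were seen. Car3 itself rose from 1079 ± 49.2 at 0 d to 6346 ± 222 at 28 d. The brown adipocyte gene Ucp1 was at 0 in all but 3 samples, each with 1 fragment.

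With the level of Adipoq of each sample as a covariate, an alternative chosen after the data were seen, calls were kept or gained by several genes. Scd1 was lower at 3 d (log2 fold change -2.50), 5 d (-2.19), 7 d (-1.06), 14 d (-0.92) and over the late days (-0.60), each with a limma adjusted p of at most 0.00541. Plin1 was lower at 3 d by the same fit (-0.82, limma adjusted p = 6.5e-07), also against 1 d (-0.80), and Cidec was higher at 1 d (0.81, limma adjusted p = 1.38e-06). Plin4 passed as higher at 3 d (0.68, limma adjusted p = 0.00268), and Plin2 at 14 d fell short (0.55).

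Plain ratios to Adipoq, which use the same values, were also computed after the data were seen. Scd1 held 5.61 to 7.77 times the FPKM of Adipoq at 0 d and 2.38 to 7.66 at 1 d. It held 0.832 to 1.92 at 3 d and 1.15 to 1.65 at 5 d. The ratio came back to 2.65 to 4.40 at 7 d, 2.37 to 4.73 at 14 d, 4.67 to 6.17 at 21 d and 3.98 to 4.78 at 28 d. It was below all 0 d samples at 3, 5, 7, 14 and 28 d. For Plin1 the ratio was 0.305 to 0.386 at 0 d and 0.145 to 0.200 at 3 d, with no overlap. It was below all 0 d samples also at 5 d (0.240 to 0.282) and 28 d (0.293 to 0.299). For Lep the ratio was 0.115 to 0.209 at 0 d and lay below that at 14 d (0.0660 to 0.109). For Cidec it was 0.438 to 0.557 at 0 d and 0.900 to 1.35 at 1 d, again with no overlap. Over 28 such exact permutation tests of the ratios of Scd1, Plin1, Cidec and Lep, the smallest p was 0.0286 and 0.08 after adjustment.

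**Figure D5:**
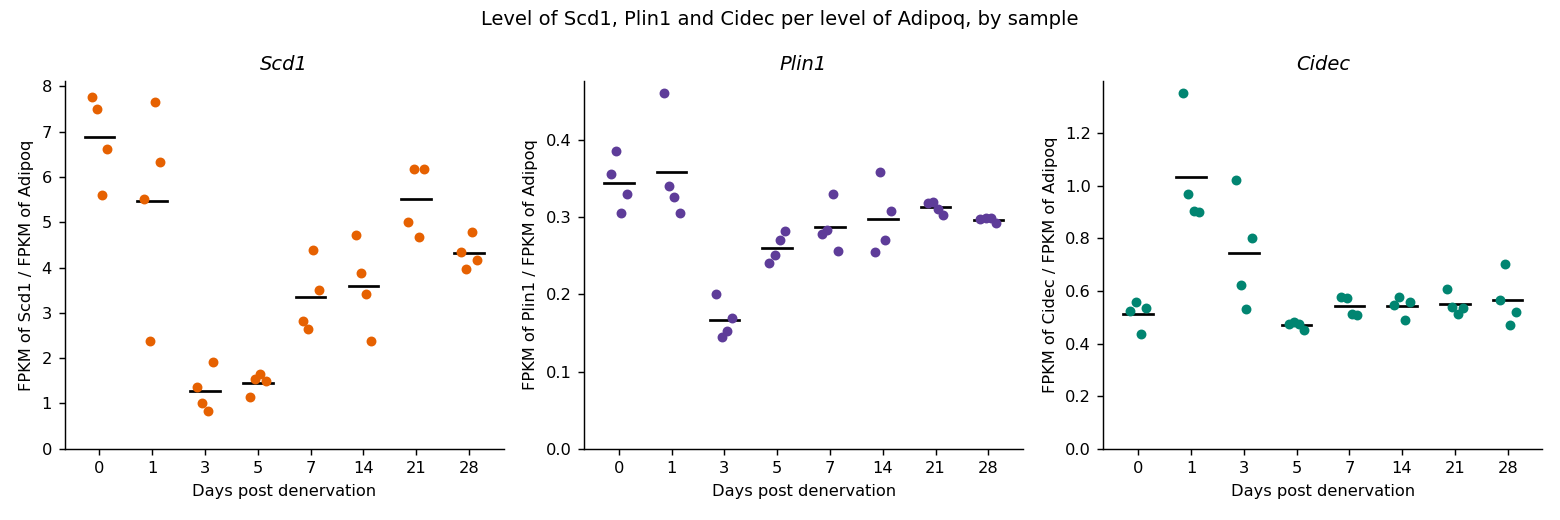
FPKM of Scd1, Plin1 and Cidec divided by the FPKM of Adipoq in the same sample (y axes, from 0) by days post denervation (x axis, equally spaced), with 1 point per sample and the mean as a bar, 4 samples a day. Scd1 per Adipoq falls from 5.61 to 7.77 at 0 d to 0.832 to 1.92 at 3 d, Plin1 per Adipoq is lowest at 3 d, and Cidec per Adipoq is highest at 1 d.

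Genes of the surrounding pathways were counted in lists. Of all 22071 tested genes, 1400 were higher and 550 lower at 1 d, and 2924 and 1330 at 3 d, while 2937 were higher and 863 lower of 20243 at the late days. Once the median gene was set to no change these counts were 867 and 1115, 1832 and 2160, and 1410 and 1638. The late median log2 fold change was -0.09 for the droplet list, -0.08 for uptake, -0.17 for synthesis of fatty acids and 0.20 for triglyceride synthesis. For transcription factors it was -0.06 and for hormone reception -0.08, beside 0.15 for all genes and 0.28 for those averaging 1 FPKM or more. Once the median gene was set to no change, the medians of the lists were -0.40, -0.43, -0.50, -0.06, -0.34 and -0.44. That of triglyceride synthesis thus changed sign. Of 13 tested genes for droplet coats, lipolysis and droplet formation outside the 10, 3 were higher and 1 lower at 1 d, 3 higher and 5 lower at 3 d, and 0 higher and 3 lower at the late days. Pnpla2, the first lipase of triglyceride breakdown, rose with Plin2 from 66.8 ± 5.4 FPKM at 0 d to 185 ± 27.1 at 1 d and 241 ± 40.9 at 3 d (log2 fold change 1.82 ± 0.12 at 3 d, limma adjusted p = 1.49e-13). Its inhibitor G0s2 was lower at 3 d (-1.96 ± 0.23, limma adjusted p = 2.66e-08). At the late days Fitm2 (-0.84), G0s2 (-0.80) and Plin3 (-0.76) were lower. Once the median gene was set to no change the list gave 1 higher and 2 lower at 1 d, 1 and 6 at 3 d and 0 and 6 at the late days.

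Among 13 genes of fatty acid uptake and activation, 3 rose at 1 d and 0 fell, while 4 rose and 4 fell at the late days. Angptl4, an inhibitor of lipoprotein lipase, rose from 2.60 FPKM at 0 d to 13.4 at 1 d and 17.5 at 3 d (log2 fold change 2.32 ± 0.33, limma adjusted p = 1.2e-06). Lpl, the lipase itself, was lower at 3 d (-2.12) and at the late days (-1.41 ± 0.11, limma adjusted p = 7.1e-09). Cd36, a fatty acid transporter, had log2 fold changes of 0.60 at 1 d and -0.73 at the late days, the first of which was 0.39 and no call with the median gene set to no change. Fabp3 (-1.39) and Slc27a1 (-1.15) were also lower late, and Acsl3 (2.15), Fabp5 (0.91) and Acsl5 (0.75) were higher. Counts with the median gene set to no change were 1 higher and 0 lower at 1 d and 2 and 6 late. Acsl3, Fabp5 and Acsl5 thus did not all keep their late call.

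In fatty acid synthesis and desaturation, 2 of 14 genes rose and 3 fell at 1 d, and 1 rose and 4 fell at 3 d. Fasn, the fatty acid synthase, had its lowest level on the day Scd1 did, with 14.7 ± 7.0 FPKM at 0 d and 1.58 at 3 d (log2 fold change -2.56 ± 0.30, limma adjusted p = 4.49e-08). Srebf1, a transcription factor for such genes, was lower then too (-1.14 ± 0.12, limma adjusted p = 3.15e-09), as were Scd2 (-0.80) and Mlxipl (-0.74), while Acacb was higher (0.95). At the late days Me1 (-0.78), Fasn (-0.74) and Mlxipl (-0.64) were lower. The counts with the median gene set to no change were 0 higher and 5 lower at 1 d, 1 and 7 at 3 d and 0 and 6 late. Of 12 genes of triglyceride synthesis, 2 were higher late, Lpin2 (1.81) and Lpin3 (0.81), and 1 was lower, Lpin1 (-1.11 ± 0.09, limma adjusted p = 1.05e-08). With the median gene set to no change 1 was higher and 2 were lower, and Lpin3 (0.55) fell short. Lpin1, a phosphatidate phosphatase, was high at 1 d like Plin5, with 90.0 ± 6.5 FPKM at 1 d against 32.1 ± 4.8 at 0 d.

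Of 14 adipogenic and PPAR transcription factors, 4 were higher and 1 lower at 1 d. Cebpd and Cebpb, which act before Pparg in adipocyte formation, rose at 1 d by 2.88 ± 0.20 and 1.94 ± 0.23 on the log2 scale (limma adjusted p = 3.55e-12 and 9.45e-08), with Ppard at 1.05 and Klf15 at 0.91. At the late days Cebpb (1.17) and Cebpd (0.78) were higher, and Rxrg (-2.21), Ppara (-0.85) and Rxra (-0.69) were lower. Cebpa, the partner of Pparg in adipocytes, had 7.5 ± 2.5 FPKM at 0 d and 12.1 ± 5.2 at 14 d and passed at no day. The late count was 1 higher and 3 lower once the median gene was set to no change, so Cebpb and Cebpd did not both keep their late call.

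Among the 8 genes of leptin, adiponectin and insulin reception, Cdh13, a receptor of adiponectin, was higher late (1.66) with Lepr, the leptin receptor (0.64, and 0.39 with no call when the median gene was set to no change), and Slc2a4 (-1.40), Irs1 (-0.91) and Irs2 (-0.66) were lower. That made 2 higher and 3 lower, and 1 and 3 with the median gene set to no change. Of 10 markers of fibro-adipogenic progenitors, the stromal cells of muscle from which adipocytes arise, Lum (1.30) and Pi16 (0.82) were higher late and 0 were lower, a share near that of all genes. With the median gene set to no change Pi16 (0.49) fell short. Their summed FPKM was 398 to 527 at 0 d and 442 to 616 at 14, 21 and 28 d. Of 10 endothelial markers, Kdr alone was lower late (-0.90), and 8 were with the median gene set to no change. Endothelial sums were 129 to 148 at 0 d and lay below that range on every day from 3 d on, between 85.0 and 126. Fabp4, which capillaries also express, lay below all 0 d samples at 7 and 21 d among these days in the deposited FPKM. Their part in its level was not tested. Of 8 muscle fibre markers, 4 were lower and 1 higher late, and 5 and 0 with the median gene set to no change.

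The genes whose levels were most like those of each of the 10 were looked up among the 11943 genes averaging 1 FPKM or more, by Pearson's r of log2(FPKM + 1) over the 32 samples. Mlycd (0.970), Lpin1 (0.968) and Cd36 (0.967) were nearest to Plin5, and Timp4 (0.945) and Rab7 (0.944) to Plin4. Hmga1 (0.955), Hmga1b (0.953) and 2900026A02Rik (0.947) were nearest to Plin2. For Adipoq they were Prkar2b (0.947), Lgals12 (0.930) and Plin1 (0.926), for Cidec Prkar2b (0.938), Lipe (0.906) and Smoc1 (0.898), and for Plin1 Slc1a5 (0.948), Cdo1 (0.946) and Lgals12 (0.932). Scd1 was nearest to Retn (0.903), Fasn (0.890) and Abcd2 (0.850). Lep had Smoc1 (0.902), Trarg1 (0.860) and Prkar2b (0.806), Pparg had Prkar2b (0.872), Cidec (0.861) and Cebpa (0.848), and Fabp4 had Lipe (0.846), Pck1 (0.798) and Trarg1 (0.765). These coefficients describe 32 samples that share 8 days, and Hmga1 and Hmga1b are near-identical in sequence.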

How the data were processed

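Total RNA of 32 GAS muscles was sequenced. The labels name an Illumina TruSeq kit for the libraries, whereas the study's methods name a VAHTS Universal kit. The authors deposited 1 table of FPKM values for 33397 Ensembl genes. The submitters' processing notes name CASAVA, HISAT2 2.1.0, DESeq2 and GRCm38, and the counter and annotation are not given in the sources used here. The deposited FPKM were left as they were for the main results. Symbols came from GENCODE mouse release vM21, which matched 33356 identifiers and left 41 without a match. Its merged exon lengths turned FPKM into whole fragments (tolerance 0.02) for 99.3% of values under 200 fragments in each sample. Depth was 14199902 to 17561584 fragments. Plin5, Lep and Pparg had the fewest in a single sample (42, 44 and 60), so counting error is part of the spread of their samples.

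Columns name the day but no animal, and were used as 4 replicates of a day. Nothing ties them to separate animals beyond the labels and methods, so p-values measure the spread between these samples. Linear models with moderated variances that follow a trend in the mean were fitted on log2(FPKM + 1) by limma 3.58.1 under R 4.3.3. A gene was fitted where 4 or more samples reached 0.1 FPKM. Days were compared in a fit of all 32 samples, and the 12 samples of 14, 21 and 28 d with 0 d in a fit of their own. Exact permutation tests were two-sided. Intervals of 95% came from limma's moderated degrees of freedom. The remaining computations ran in Python 3.11.15 (scipy 1.17.1, pandas 2.3.3, numpy 2.4.6, matplotlib 3.10.9). Simulated data with known changes were used to check the fits.

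The 10 genes and the gene lists were chosen with earlier results of these data known. Named were the 10 genes, up to 3 higher and 3 lower genes of each list at the late days, genes of a list with 5 or fewer calls at a described day, the most abundant markers of other cell types, and the 3 genes most like each of the 10. Of those most like Plin4, 1 is not reported here. Cebpa, Pck1, Retn, Cfd and Trarg1 were named after their values were seen, as examples of a count. Alternatives covered the pseudocount, the filter, TPM, median-ratio scaling, quantile normalization, voom on the recovered fragments, the variance trend, the thresholds, the samples in the fit, each sample left out and, added later, Adipoq as a covariate. Promoter windows came from RefSeq on GRCm38.p6. Protein sequences, histology and the knockout and cell culture experiments were not analysed here.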

Additional observations from a re-analysis of the deposited data

Results flagged for a closer look

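In 80 groups of 4 samples, formed by the 10 genes at the 8 days, 1 sample stood far from the other 3 by Dixon's criterion, a number below the share of about 1 in 20 that chance gives. It was the third 0 d sample for Plin5, with an FPKM of 12.4 against 11.02 to 11.1.

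Changes between successive days passed limma's test 8 times. Plin2 rose by 1.77 on the log2 scale from 1 to 3 d and fell by 1.65 from 3 to 5 d. Plin4 fell by 0.89 in the first of these steps and fell by 1.88 in the other. Plin5 fell by 1.01 from 1 to 3 d, then fell by 1.4999 from 3 to 5 d, and fell by 0.87 from 5 to 7 d. Scd1 fell by 1.96 from 1 to 3 d.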

How the results depend on the processing

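For the 10 late log2 fold changes and the 20 calls of a gene at a day, 612 recomputed values kept their direction and call, 9 lost a call, 3 gained one and 15 changed sign. With the median gene set to no change, Pparg, Adipoq, Plin1 and Cidec, none of which passed, had late log2 fold changes of -0.048, -0.15, -0.29 and -0.047 by limma and -0.047, -0.15, -0.29 and -0.047 in the exact test, and under quantile normalization Pparg, Adipoq and Plin1 had -0.055, -0.071 and -0.26. With Adipoq as a covariate Plin1 had -0.16. Without 1 sample, Lep ranged from -0.49 to 0.078 and Plin1 from -0.17 to 0.27.

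Calls were also gained at days at which a gene had not passed, as given above for Fabp4, Scd1, Plin1, Plin2, Plin4, Plin5 and Cidec. Counts of the 10 genes that changed by over 1.5 times were these. Higher at 3 d were 3 in TPM and 2 at an adjusted p alone or with the covariate, against 1. Lower at 7 d were 4 under median-ratio scaling and under quantile normalization, against 2. Higher at 14 d were 0 under both scalings and with the covariate, against 1. Higher at 28 d and at the late days was 1 in TPM and at an adjusted p alone, Plin2 each time, against 0. The covariate gave 2 calls from 5 to 7 d, against 1, and an adjusted p alone 1 call at 28 d against 7 d. Leaving out 1 sample gave 0 to 1 lower at 1 d, 1 to 2 higher and 1 to 2 lower at 3 d, 0 to 1 higher at 14 d, 0 to 1 higher at 28 d and 0 to 2 calls at 28 d against 7 d. The relation of Plin2 with Adipoq reached r = 0.61 (adjusted permutation p = 0.00492) without the 28 d samples, and the other 8 relations stayed on their side of the threshold. In each comparison with 0 d, 1400 to 3403 of all genes were higher and 550 to 1330 lower, against 867 to 1832 and 1115 to 2160 under median-ratio scaling and 2679 to 6782 and 634 to 1397 in TPM. Voom on recovered fragments gave 2495 to 5962 and 1131 to 2414. The cause of these differences was not tested.

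No paired analysis was possible because the columns carry letters or numbers within a day that the labels tie to no shared animal or batch. The spread between the 4 samples of a day, with an SE of 0.44 for Plin1 against 0.14 for Plin2 on the log2 scale, set the precision of the tests.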

Other observations

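A pair of members of gene lists outside the 10 showed courses not described above. Gpd1, glycerol-3-phosphate dehydrogenase of the cytosol, is listed with adipocyte markers and is also made by muscle. It fell from 124 ± 4.2 FPKM at 0 d to 16.6 ± 2.6 at 3 d and stayed at 25.5 ± 5.8 at 28 d, with a late log2 fold change of -2.33 ± 0.11 (limma adjusted p = 1.21e-11). Cidea, a droplet protein related to Cidec and used as a brown adipocyte marker, was at 0.7 ± 0.2 at 0 d and 3.3 ± 0.7 at 28 d and passed at all 7 days, while Ppargc1a, which drives mitochondrial biogenesis, was lower late (-0.77). Of 4 brown adipocyte markers tested at the late days, 2 were higher and 1 lower (1 and 1 with the median gene set to no change).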
